A study of Mus musculus with 6 samples.

Results

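The genes described here are 35 members of the autophagy machinery and its cargo receptors, taken by symbol from a table of 27067 mouse genes, with no threshold on their values. All 35 have a row in the table, 34 under their own symbol in the gene annotation and Tmem55a under its newer symbol Pip4p2. Expression was measured by RNA sequencing of polyadenylated RNA from B16F10, a pigmented mouse melanoma cell line. In 3 libraries the cells had received Polianthes tuberosa L. (tuberose) extract, and 3 libraries came from control cells of the same line. The labels give no dose, duration or solvent, do not say whether controls received a solvent, and do not say whether replicates were separate cultures. The p-values therefore reflect library-to-library spread alone, and that spread may be purely technical.

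Autophagy encloses cytoplasm in a double membrane that fuses with the lysosome. The ULK kinase complex starts the process, a class III PI3-kinase complex marks the site with a phosphoinositide, and a ubiquitin-like conjugation system attaches ATG8 proteins (LC3 and GABARAP) to the growing membrane. Cargo receptors bind both ATG8 and the material to be degraded. Many of these steps are controlled on proteins and not on transcripts, and the values here are transcript levels. In pigment cells, several autophagy proteins are also known from work on the formation and turnover of melanosomes, the pigment organelles.

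Library totals were 31183728 to 33717357 counts in treated cells and 31991473 to 40129044 counts in control cells. Levels are given as CPM, the count of a gene relative to the scaled size of its library. The 7 melanocyte markers summed to 13888 to 14705 CPM in treated and 16696 to 17302 CPM in control libraries, with all 7 detected in every library. They did not move one way: Tyrp1 was at 5629 to 6166 CPM in treated and 5074 to 5429 CPM in control libraries, while the other 6 (Pmel, Dct, Tyr, Mlana, Mitf and Sox10) were lower in every treated library than in every control, Mlana only slightly, at 834 to 862 CPM in treated and 869 to 883 CPM in control libraries. Fibroblast markers summed to 9.93 to 11.2 CPM in treated and 7.24 to 10.7 CPM in control libraries, and endothelial and epithelial markers to at most 0.519 CPM in treated and 1.07 CPM in control libraries. The immune list summed to 7.15 to 7.90 CPM in treated and 3.12 to 3.36 CPM in control libraries, nearly all of it from Cd68, a lysosomal protein gene of macrophages. The pan-leukocyte gene Ptprc and the myeloid gene Itgam were at 0 in all 3 controls and in 2 of 3 treated libraries. The part of these marker differences in the results was not tested. In bulk RNA, fewer cells of a type and less RNA per cell cannot be told apart.

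In treated cells the transcripts of the 5 listed cargo receptors, of the 5 listed ATG8 proteins and of most of the ULK complex were higher. Few PI3-kinase complex genes passed, and lipidation genes went both ways. Among 16 other tested receptors and regulators of selective autophagy, outside the 35, 7 rose, 3 fell and 6 did not pass. Of the 35 genes, 19 rose, 7 fell and 9 did not pass (edgeR quasi-likelihood test, adjusted p under 0.05 over 15150 tested genes). Among all tested genes 53.0% passed, 25.1% as higher and 27.9% as lower. All members averaged at least 5 CPM over the groups, and among the 10440 tested genes at that level 65.1% passed, 26.3% as higher and 38.7% as lower, against 74.3% of the members as a whole and 54.3% as higher, with 7 of 35 lower. The median log2 fold change, treated over control, was 0.09 for the members and 0.01 for all tested genes. Changes were modest: 13 of the 35 passed with a log2 fold change of at least 0.25 in size, against 32.6% of all tested genes. The treated and control libraries did not overlap for 30 of the 35 members, against 58.7% of all tested genes. The 32.6% and the 58.7% include genes below 5 CPM, and shares at the members' level were not computed. When libraries were scaled by their totals alone, 22 members rose and 5 fell, and the split over all tested genes was 5069 higher and 3045 lower, against 3809 higher and 4223 lower by TMM scaling.

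**Figure D1:**
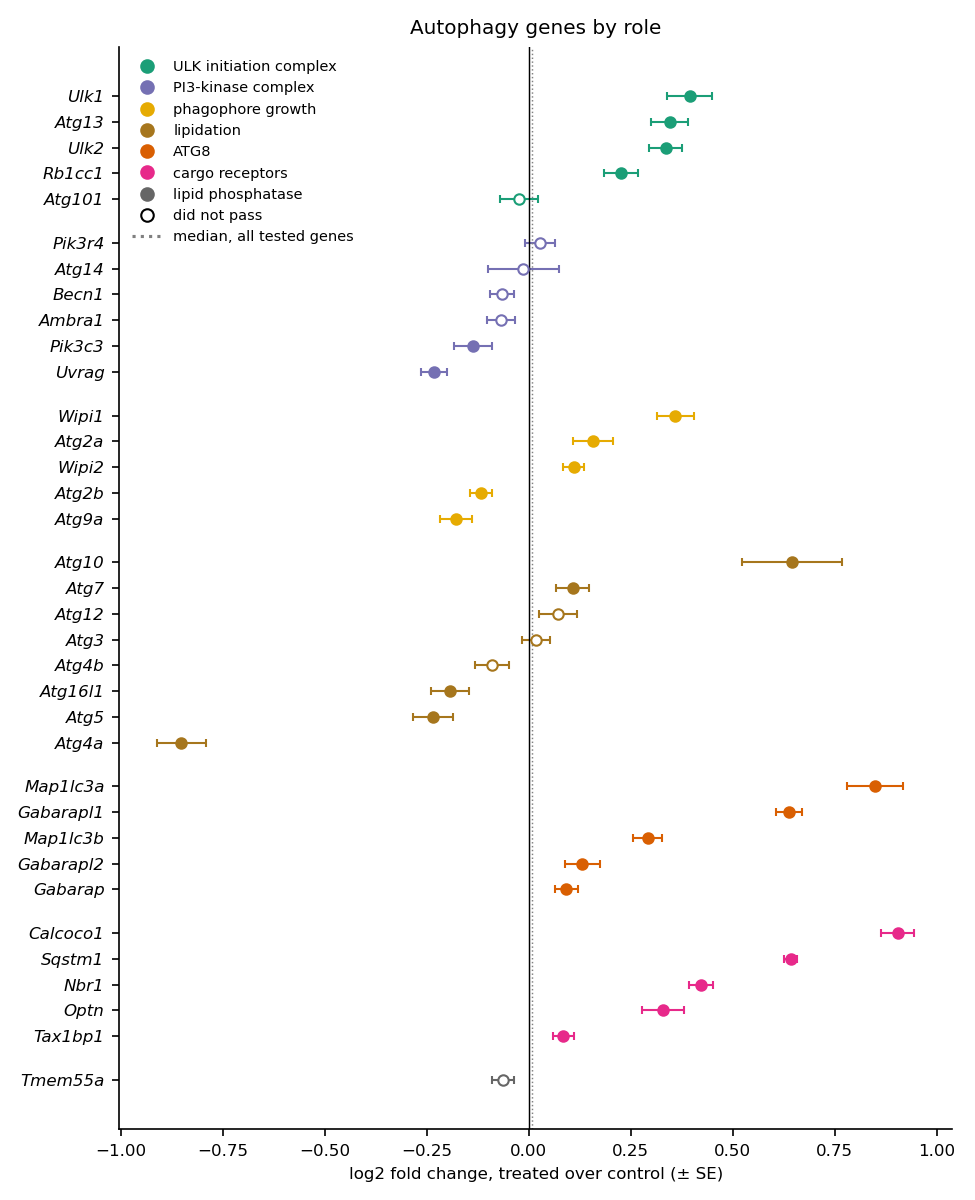
Log2 fold change (treated over control, horizontal axis, with SE) of each of the 35 genes, grouped by role; filled points passed the test, open points did not, and the dotted line is the median of all tested genes. All 5 cargo receptor genes and all 5 ATG8 genes lie right of 0, while Atg4a lies farthest left at -0.85.

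Taken as read counts, the 35 genes made up 0.429 to 0.435% of each treated library and 0.333 to 0.337% of each control library. Sqstm1 alone gave 37.7 to 38.1% of the members' counts in treated and 29.5 to 29.9% in control libraries. Without Sqstm1 the other 34 genes still took 0.266 to 0.269% of treated and 0.234 to 0.237% of control libraries, and the groups did not overlap.

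All 5 cargo receptor genes on the list rose, with a median log2 fold change of 0.42. Sqstm1 (ENSMUSG00000015837) encodes p62, which collects ubiquitinated proteins and binds KEAP1, the inhibitor of the oxidative stress factor NRF2. It was the most abundant member by far, with 1613, 1578 and 1590.5 CPM in treated replicates 1, 2 and 3 and 1026, 1012 and 1027 CPM in control replicates 1, 2 and 3. Every treated library lay far above every control. The means were 1594 ± 17.7 CPM in treated and 1021 ± 8.58 CPM in control cells (SD, n = 3 each), or 0.64 ± 0.02 as log2 fold change with its SE (edgeR adjusted p = 5.55e-19).

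Calcoco1 (ENSMUSG00000023055), a receptor for turnover of the endoplasmic reticulum and Golgi, had the largest rise among the 35 members. It measured 72.7, 69.0 and 73.1 CPM in treated and 38.8, 36.5 and 39.3 CPM in control libraries. Every treated library was far above every control. The mean rose by 87.3% to 71.6 ± 2.26 CPM in treated cells, against 38.2 ± 1.48 CPM in control cells (log2 fold change 0.90 ± 0.04, edgeR adjusted p = 2.06e-14). Nbr1 (ENSMUSG00000017119), which like p62 carries ubiquitinated cargo, measured 193, 188 and 186 CPM in treated and 136, 141 and 146 CPM in control libraries. Its lowest treated value stood well clear of the highest control value (log2 fold change 0.42 ± 0.03, edgeR adjusted p = 2.83e-11).

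Optineurin, encoded by Optn (ENSMUSG00000026672), is a receptor for damaged mitochondria and bacteria. Its transcript measured 46.1, 49.5 and 48.0 CPM in treated and 37.2, 35.6 and 41.5 CPM in control libraries (log2 fold change 0.33 ± 0.05, edgeR adjusted p = 8.97e-06). Control replicate 3 was the highest control, yet remained below every treated library. Tax1bp1 (ENSMUSG00000004535), a receptor that also restrains inflammatory signalling, moved least, with 387, 379.9 and 409 CPM in treated and 363, 374 and 372 CPM in control libraries. That rise of 6.02% (log2 fold change 0.08 ± 0.03, edgeR adjusted p = 0.00798) was not called without treated replicate 3 (log2 fold change 0.05, edgeR adjusted p = 0.106). For Sqstm1, 17.3% of the annotated exonic bases overlap the gene Mrnip on the opposite strand, and the strand setting of the counting is not given in the sources used here. Mrnip was counted at 5.33 ± 0.608 CPM in treated and 5.80 ± 0.896 CPM in control cells. The part of this overlap in the Sqstm1 count was not tested.

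**Figure D2:**
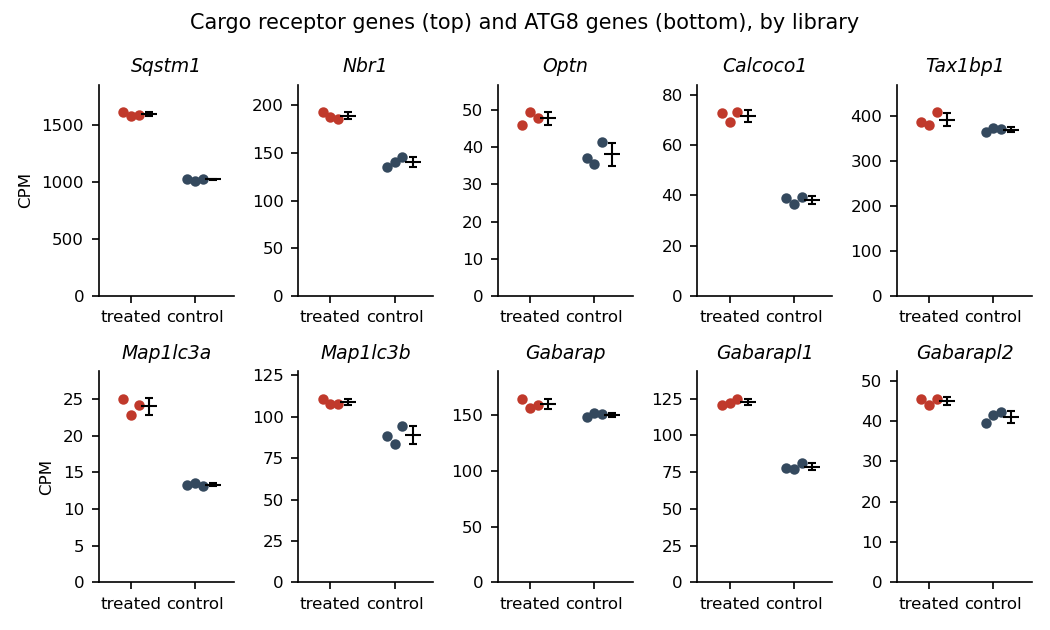
CPM in each library (vertical axis, starting at 0) of the 5 cargo receptor genes in the top row and the 5 ATG8 genes in the bottom row, with treated libraries in red on the left and control libraries in dark blue on the right; the bars are mean ± SD of 3 libraries. In all 10 panels every treated library lies above every control, by the widest relative margin in Calcoco1 and Map1lc3a.

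The ATG8 proteins are the tags that membranes receive and that receptors bind, and all 5 genes of this family on the list rose, with a median log2 fold change of 0.29. Map1lc3a (ENSMUSG00000027602), the LC3 gene with the lowest CPM of these 5 genes in both groups, rose most. It had 25.1, 22.8 and 24.1 CPM in treated and 13.3, 13.5 and 13.1 CPM in control libraries, with the controls within 1 CPM of each other. The change was 0.85 ± 0.07 on the log2 scale (edgeR adjusted p = 4.19e-10). Gabarapl1 (ENSMUSG00000030161), a gene of the GABARAP branch, measured 121, 122 and 125 CPM in treated and 78.0, 76.9 and 81.5 CPM in control libraries. Both groups were tight and far apart (log2 fold change 0.64 ± 0.03, edgeR adjusted p = 5.77e-14). Of the annotated exonic bases of Gabarapl1, 28.3% overlap 1700101I11Rik on the opposite strand. That row was counted at 0.241 ± 0.138 CPM in treated and 0.158 ± 0.0486 CPM in control cells.

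Map1lc3b (ENSMUSG00000031812), the LC3 form most used to count autophagosomes, had 111, 108 and 108 CPM in treated and 88.6, 83.7 and 94.3 CPM in control libraries. Its treated libraries lay together and its controls were more spread, without overlap (log2 fold change 0.29 ± 0.04, edgeR adjusted p = 3.14e-07). Gabarap (ENSMUSG00000018567) measured 165, 157 and 159 CPM in treated and 148, 152 and 151 CPM in control libraries, a rise of only 6.54% (log2 fold change 0.09 ± 0.03, edgeR adjusted p = 0.00727). Gabarapl2 (ENSMUSG00000031950) measured 45.6, 43.9 and 45.4 CPM in treated and 39.5, 41.5 and 42.3 CPM in control libraries (log2 fold change 0.13 ± 0.04, edgeR adjusted p = 0.0143). These last calls were thin: Gabarap's was lost without treated replicate 1 (edgeR adjusted p = 0.0665), and Gabarapl2's was lost without treated replicate 1, treated replicate 3 or control replicate 1 (edgeR adjusted p = 0.0623, 0.0512 and 0.0779). Map1lc3b and Gabarapl2 have near-identical processed pseudogenes, so their counts are uncertain. The closest copy of Map1lc3b, Gm6055, is 99.7% identical over 378 bases and had 11.9 ± 1.37 CPM in treated and 11.2 ± 0.589 CPM in control cells.

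Unequal rises changed the make-up of the family. Per kilobase of the annotated principal transcript, Gabarap made up 42.8 ± 0.470% of summed ATG8 transcripts in treated and 49.3 ± 0.815% in control cells (SD, n = 3 each). Gabarapl1 made up 24.3 ± 0.648% in treated and 19.1 ± 0.306% in control cells. Map1lc3a supplied 7.77 ± 0.233% in treated and 5.29 ± 0.159% in control cells, while Map1lc3b stood at 15.5 ± 0.160% in treated and 15.5 ± 0.724% in control cells. Gabarapl2 supplied 9.66 ± 0.0646% in treated and 10.8 ± 0.247% in control cells. Such shares do not depend on how libraries are scaled, but they do depend on transcript length: with the union of all annotated exons as length, chosen after the data were seen, Map1lc3b stood at 7.17% in treated and 7.32% in control cells while Gabarapl1 took 30.2% in treated and 24.2% in control cells.

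Among the 5 receptors on the list, Sqstm1 supplied 79.4 ± 0.388% of their summed transcripts per kilobase in treated and 74.7 ± 0.381% in control cells. Tax1bp1 took the largest loss of share, with 12.1 ± 0.414% in treated and 16.8 ± 0.292% in control cells, although its own transcript was not lower. Calcoco1 stood at 2.57 ± 0.0558% in treated and 2.02 ± 0.0636% in control cells. These shares, and those of gene pairs below, also depend on the transcript length used.

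The ULK initiation complex rose in 4 of its 5 genes, with a median log2 fold change of 0.34. Ulk1 (ENSMUSG00000029512), the kinase that starts autophagosome formation, had 37.8, 36.6 and 35.8 CPM in treated and 29.8, 26.7 and 27.1 CPM in control libraries (log2 fold change 0.39 ± 0.05, edgeR adjusted p = 2.07e-06). Its close relative Ulk2 (ENSMUSG00000004798) had 51.5, 53.7 and 54.2 CPM in treated and 41.9, 42.4 and 42.1 CPM in control libraries (log2 fold change 0.34 ± 0.04, edgeR adjusted p = 2.41e-07). Both kinase genes rose by similar proportions, and Ulk1 made up 43.2 ± 1.31% of the pair per kilobase in treated and 42.2 ± 1.58% in control cells. Atg13 (ENSMUSG00000027244), the adaptor that links the kinases to the complex, had 63.3, 65.0 and 61.8 CPM in treated and 48.3, 54.0 and 47.6 CPM in control libraries (log2 fold change 0.34 ± 0.04, edgeR adjusted p = 6.62e-07). Rb1cc1, which encodes the large scaffold FIP200, rose to 46.5 ± 0.550 CPM in treated cells, against 39.7 ± 0.818 CPM in control cells (log2 fold change 0.23 ± 0.04, edgeR adjusted p = 7.89e-05). Atg101, whose protein stabilises ATG13, measured 37.3 ± 1.19 CPM in treated and 37.9 ± 1.07 CPM in control cells and did not pass (log2 fold change -0.02 ± 0.05, edgeR adjusted p = 0.697); its sign depended on the scaling.

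Promoter windows from 250 bases before to 50 bases after the transcription start (RefSeq, GRCm38.p6) were matched to 28 of the 35 genes, and were searched on both strands for the antioxidant response element core TGACNNNGC, through which NRF2 acts. The letters occurred in 4 of the 28 genes, against 3781 of all 27025 genes with a window, so the members' share was at the background. They occurred in Ulk2, Atg13, Tax1bp1 and Map1lc3b, and not in the windows of Sqstm1 or Calcoco1. Sequence outside the windows was not searched, so the search cannot tell whether Sqstm1 or Calcoco1 holds the element elsewhere. The transcripts of the 4 genes with a match rose, as did those of 19 of all 35 members. A link between match and rise was not tested. The stretches of Ulk2, Atg13 and Tax1bp1 are shown because their match lies before the RefSeq start, while that of Map1lc3b lies after it. For these 3 genes the bases just after the RefSeq start were found in no GENCODE M21 transcript of the gene, so the start itself is uncertain. Capitals mark the match, which reads on the opposite strand in Atg13. They lie at chr11:61855073-61855149 (minus strand), chr2:91710786-91710842 (minus strand) and chr6:52713920-52714008 (plus strand, the second of its 2 annotated starts).
Ulk2: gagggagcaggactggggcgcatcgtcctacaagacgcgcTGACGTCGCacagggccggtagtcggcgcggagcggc
Atg13: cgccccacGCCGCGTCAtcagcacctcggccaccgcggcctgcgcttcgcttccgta
Tax1bp1: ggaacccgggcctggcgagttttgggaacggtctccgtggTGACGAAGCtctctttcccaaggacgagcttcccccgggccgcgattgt
A match of so short a core is a description of the sequence only. The element of the integrated stress factor ATF4, searched as TGATGNAA, was found in 0 of the 28 windows and in 4.51% of all genes.

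The PI3-kinase complex, which makes the lipid mark for the new membrane, was the flattest group. Of its 6 genes 2 fell, 0 rose and 4 did not pass, with a median log2 fold change of -0.07 that turned to 0.01 with library totals. Uvrag (ENSMUSG00000035354), a subunit that replaces ATG14 in a form of the complex acting on endosomes, measured 93.3, 91.4 and 94.5 CPM in treated and 113, 110.1 and 105 CPM in control libraries. All treated values were below all controls (log2 fold change -0.23 ± 0.03, edgeR adjusted p = 1.40e-06). Stretches of up to 345 bases of its transcript recur in other genes at about 95% identity. Also, 17.6% of its annotated exonic bases overlap Gm45187 on the opposite strand, so its count is uncertain. The catalytic subunit gene Pik3c3 (VPS34) fell to 36.2 ± 0.840 CPM in treated cells, against 39.8 ± 1.25 CPM in control cells (log2 fold change -0.14 ± 0.05, edgeR adjusted p = 0.0155). That call was lost without treated replicate 1 (edgeR adjusted p = 0.0646), without control replicate 3 (0.0693), with library totals (0.288, log2 fold change -0.06) and with level-dependent offsets (0.0624).

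The core subunit gene Becn1 (Beclin 1) measured 98.0 ± 2.02 CPM in treated and 103 ± 1.44 CPM in control cells (log2 fold change -0.07 ± 0.03, edgeR adjusted p = 0.0686). Ambra1, whose protein binds Beclin 1, measured 71.3 ± 2.44 CPM in treated and 74.7 ± 1.11 CPM in control cells (edgeR adjusted p = 0.108). The regulatory subunit gene Pik3r4 (VPS15) measured 62.2 ± 0.720 CPM in treated and 61.1 ± 1.86 CPM in control cells (edgeR adjusted p = 0.583). Atg14, the subunit that targets the complex to the autophagosome, was the scarcest of the group with 11.7 ± 1.23 CPM in treated and 11.8 ± 0.262 CPM in control cells (edgeR adjusted p = 0.909). None of these 4 passed, and the signs of Becn1, Ambra1 and Atg14 turned under some alternatives. For Becn1, 43.9% of annotated exonic bases overlap Cntd1 on the opposite strand, which was counted at 0.554 ± 0.180 CPM in treated and 0.401 ± 0.108 CPM in control cells.

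Genes for growth of the early membrane, the phagophore, went both ways. All 5 passed, 3 as higher and 2 as lower, with a median log2 fold change of 0.11. Wipi1 (ENSMUSG00000041895), a reader of the lipid mark, had 58.1, 55.7 and 51.8 CPM in treated and 43.0, 41.7 and 44.4 CPM in control libraries. Its treated libraries were more spread than the controls and still separate from them (log2 fold change 0.36 ± 0.05, edgeR adjusted p = 4.78e-07). Wipi2, the reader that recruits the lipidation enzymes, rose by 7.91% to 136 ± 1.08 CPM in treated cells, against 126 ± 0.343 CPM in control cells (edgeR adjusted p = 0.00108).

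ATG2 proteins carry lipid into the phagophore. Atg2a rose to 37.1 ± 1.17 CPM in treated cells, against 33.3 ± 0.697 CPM in control cells (log2 fold change 0.16 ± 0.05, edgeR adjusted p = 0.00907). Atg2b fell to 108 ± 1.11 CPM in treated cells, against 117 ± 0.321 CPM in control cells (log2 fold change -0.12 ± 0.03, edgeR adjusted p = 7.68e-04). Shares of the pair per kilobase depend on transcript length but not on scaling. By that measure Atg2a was at 28.9 ± 0.852% in treated and 25.1 ± 0.428% in control cells. Atg2a's call was lost without treated replicate 3 (edgeR adjusted p = 0.0525), and Atg2b's with library totals (0.221) and level-dependent offsets (0.412). Atg9a, the membrane protein whose vesicles seed the phagophore, fell to 54.4 ± 2.14 CPM in treated cells, against 61.6 ± 1.14 CPM in control cells (log2 fold change -0.18 ± 0.04, edgeR adjusted p = 4.56e-04). An annotated transcript on the same strand, Gm29253, shares 31.8% of its exonic bases, so its count is uncertain.

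Lipidation genes had the widest spread of any role, with log2 fold changes between -0.85 and 0.64 and a median of -0.04 that turned to 0.04 by library totals and to 0.03 by level-dependent offsets. Of 8 genes 2 rose, 3 fell and 3 did not pass. The share that passed was 62.5%, with 25% higher and 37.5% lower. That is near the background of tested genes of at least 5 CPM (65.1%, with 26.3% higher and 38.7% lower). Atg4a (ENSMUSG00000079418), one of the proteases that trims ATG8 proteins before lipidation and releases them afterwards, had the largest fall among the 35 members. It measured 19.5, 19.5 and 20.4 CPM in treated and 34.6, 34.5 and 38.1 CPM in control libraries. Every treated library was far below every control (log2 fold change -0.85 ± 0.06, edgeR adjusted p = 3.54e-11). The related protease gene Atg4b measured 55.4, 58.0 and 58.7 CPM in treated and 62.9, 62.7 and 57.6 CPM in control libraries and did not pass (log2 fold change -0.09 ± 0.04, edgeR adjusted p = 0.0674). Per kilobase, Atg4a supplied 39.5 ± 0.527% of the pair in treated and 52.6 ± 2.65% in control cells, without overlap of the groups. Which gene led in treated cells depended on the length used. With the union of all annotated exons as length, Atg4a stood at 7.44 and Atg4b at 6.93 CPM per kilobase in treated cells. In control cells they stood at 13.4 and 7.38. Atg4a-ps, a copy 99.3% identical over 2115 of the 2202 bases of the Atg4a transcript, received 33 counts in treated and 40 in control libraries in all, so the Atg4a count is uncertain.

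Atg10 (ENSMUSG00000021619), the enzyme that joins ATG12 to ATG5, was the least abundant member, with 257, 218 and 227 reads in treated and 160, 135 and 168 reads in control libraries. These correspond to 7.57, 6.29 and 7.11 CPM in treated and 4.09, 4.34 and 4.99 CPM in control libraries. The groups did not overlap, and the log2 fold change was 0.64 ± 0.12 with the largest SE of the list (edgeR adjusted p = 1.03e-04). Atg7, the activating enzyme of both conjugation branches, rose by 7.57% to 59.6 ± 1.57 CPM in treated cells, against 55.4 ± 2.03 CPM in control cells (edgeR adjusted p = 0.0262). That call was lost with no filter (edgeR adjusted p = 0.0623) and without treated replicate 1 (0.128), treated replicate 2 (0.0571) or control replicate 1 (0.125).

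Atg5 and Atg16l1 encode parts of the complex that places ATG8 on the membrane, and both fell. Atg5 reached 33.5 ± 1.35 CPM in treated cells, against 39.4 ± 1.21 CPM in control cells (log2 fold change -0.24 ± 0.05, edgeR adjusted p = 2.95e-04). Atg16l1 reached 42.0 ± 2.08 CPM in treated cells, against 48.1 ± 1.83 CPM in control cells (log2 fold change -0.19 ± 0.05, edgeR adjusted p = 0.00103). Their partner Atg12 measured 37.5 ± 0.673 CPM in treated and 35.7 ± 0.978 CPM in control cells and did not pass (edgeR adjusted p = 0.218). Atg3, the enzyme that hands ATG8 to its lipid, measured 79.4 ± 0.850 CPM in treated and 78.4 ± 2.62 CPM in control cells and did not pass (edgeR adjusted p = 0.695).

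**Figure D3:**
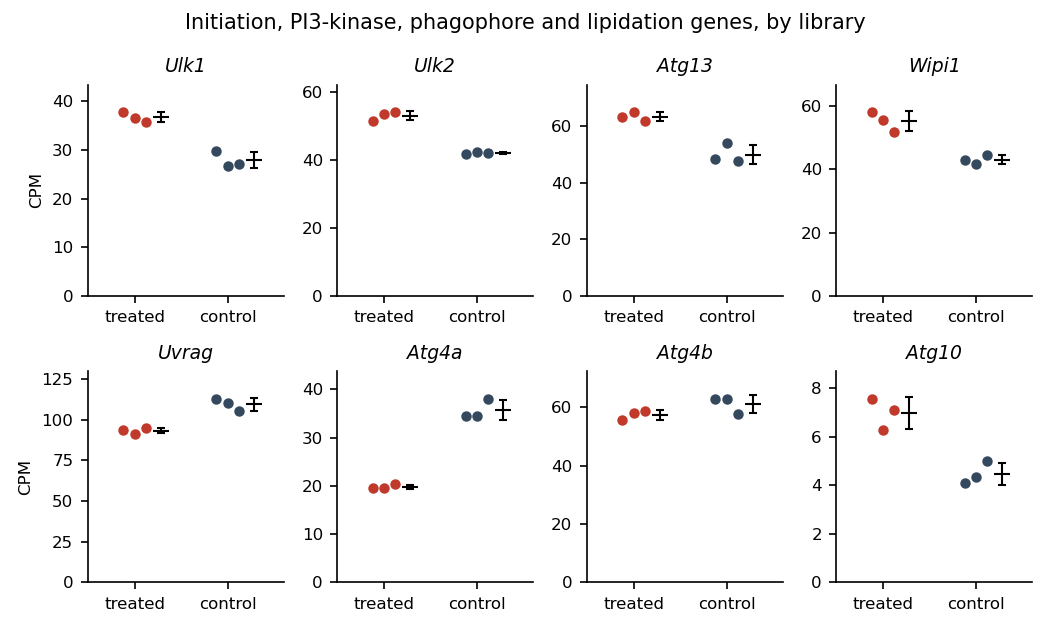
CPM in each library (vertical axis, starting at 0) of 8 genes of initiation, lipid marking, phagophore growth and lipidation, with treated libraries in red on the left and control libraries in dark blue on the right; the bars are mean ± SD of 3 libraries. Treated libraries lie above the controls for Ulk1, Ulk2, Atg13, Wipi1 and Atg10 and below them for Uvrag and Atg4a, while the Atg4b groups overlap.

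The E-box CACGTG, the letters bound by MITF, TFEB, TFE3 and related factors, was found in the promoter windows of 3 of the 6 lipidation genes with one, Atg3, Atg5 and Atg7, and in that of Atg14. Over all 27025 genes with a window 8.09% hold it, and of the 28 members 4 do, which is 14.3%. Their transcripts did not share a direction: Atg5 fell, Atg7 rose, and Atg3 and Atg14 did not pass. The stretches are shown because these genes carry the motif and differ in response. Capitals mark CACGTG, present 2 times in Atg3, at chr16:45158695-45158803 (plus strand), chr10:44268285-44268358 (plus strand), chr6:114670924-114671009 (plus strand) and chr14:47568415-47568475 (minus strand).
Atg3: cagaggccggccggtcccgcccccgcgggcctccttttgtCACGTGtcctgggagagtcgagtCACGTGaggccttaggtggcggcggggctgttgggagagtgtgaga
Atg5: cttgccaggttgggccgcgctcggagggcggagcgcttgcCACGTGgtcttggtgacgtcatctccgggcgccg
Atg7: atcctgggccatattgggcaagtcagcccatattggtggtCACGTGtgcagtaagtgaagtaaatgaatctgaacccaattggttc
Atg14: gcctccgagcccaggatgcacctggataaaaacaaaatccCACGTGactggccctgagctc
For Atg5 and Atg7, but not Atg3 and Atg14, the bases just after the RefSeq start were found in no GENCODE M21 transcript of the gene. The Atg5 stretch also holds the cAMP response element TGACGTCA, in lower case there, starting 1 base before the RefSeq start. It was the sole member window with that element, against 2.03% of all genes. In these libraries the E-box factor gene Tfeb was at 14.7 ± 0.173 CPM in treated and 20.4 ± 1.79 CPM in control cells (log2 fold change -0.47 ± 0.07, edgeR adjusted p = 1.13e-05), Mitf at 325 to 341 CPM in treated and 463 to 482 CPM in control libraries, and Tfe3 at 65.5 CPM in treated and 61.8 CPM in control cells (edgeR adjusted p = 0.0685).

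Tmem55a (Pip4p2) encodes a phosphatase that acts on phosphoinositides of late endosomes and lysosomes. It measured 113, 116 and 117 CPM in treated and 122, 121 and 119 CPM in control libraries (log2 fold change -0.06 ± 0.03, edgeR adjusted p = 0.0577). The groups were just separate, and the test was not passed.

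Levels per kilobase of principal transcript, in CPM per kilobase, spanned a wide range. Sqstm1 led with 782 ± 8.67 in treated and 501 ± 4.21 in control cells. Tax1bp1 followed with 119 ± 4.59 in treated and 113 ± 1.67 in control cells, and Gabarap, at 119 in treated and 111 in control cells on average, lay within the spread of Tax1bp1 in both groups. Wipi2 came next, with 69.6 ± 0.552 in treated and 64.5 ± 0.175 in control cells. At the low end Atg10 had 4.42 ± 0.412 CPM per kilobase in treated and 2.83 ± 0.292 in control cells, and Atg14 had 3.14 ± 0.331 in treated and 3.17 ± 0.0703 in control cells. The treated libraries thus placed Atg14 last, and the controls placed Atg10 last, although in the controls these neighbours lay close. Calcoco1 stood at 25.4 ± 0.799 CPM per kilobase in treated and 13.5 ± 0.524 in control cells.

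**Figure D4:**
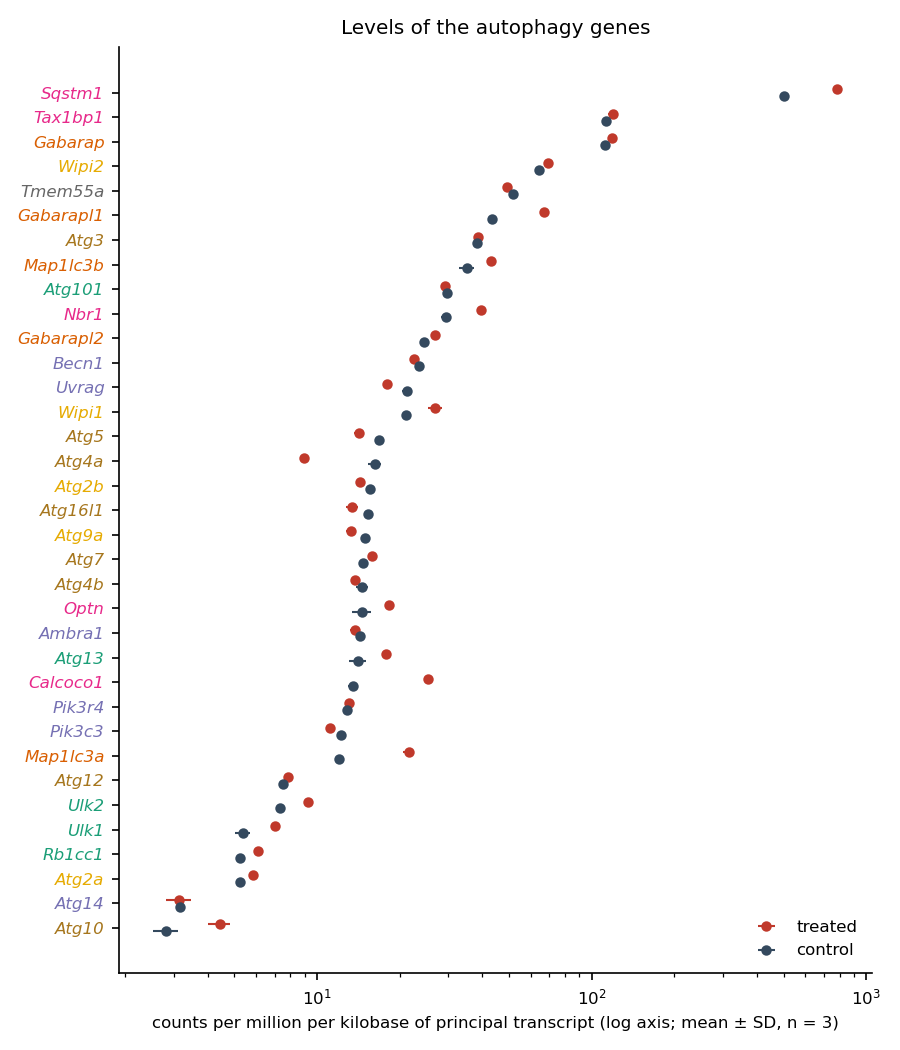
Level of each of the 35 genes in CPM per kilobase of principal transcript (horizontal log axis), treated in red above control in dark blue, mean ± SD of 3 libraries, ordered by the control level, with gene names coloured by role as in the plot of log2 fold changes. Sqstm1 is far above the rest in both groups, and Calcoco1, Map1lc3a and Atg4a show the widest gaps between treated and control. The order of the genes depends on the transcript length used.

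Of 54 other genes of the pathway, 50 were tested, and these were mixed: 16 rose, 14 fell and 20 did not pass, with a median log2 fold change of 0.04. The share that passed, 30 of 50, stands beside 53.0% of all tested genes and 65.1% of those of at least 5 CPM. The counts depend on the scaling, with 27 higher and 9 lower by library totals and 24 higher and 8 lower with level-dependent offsets. Among 16 tested receptors for organelles and regulators of selective autophagy, 7 rose and 3 fell. The mitophagy kinase gene Pink1 rose to 27.9 ± 0.714 CPM in treated cells, against 19.7 ± 1.71 CPM in control cells (log2 fold change 0.50 ± 0.07, edgeR adjusted p = 1.11e-06). Bnip3l and Bnip3, receptors on the mitochondrial surface, rose by 0.39 ± 0.03 and 0.31 ± 0.03 on the log2 scale. Phb2, a prohibitin gene of the inner mitochondrial membrane, fell by 0.47 ± 0.02 in log2 units.

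Of 13 genes of fusion with lysosomes 5 fell, 3 rose and 5 did not pass (median log2 fold change -0.04). The share that passed was 61.5%, with 23.1% higher and 38.5% lower. That is near the background of tested genes of at least 5 CPM (65.1%, with 26.3% higher and 38.7% lower). Vps11 and Vps33a, subunits of the HOPS tethering complex, fell by 0.40 ± 0.03 and 0.39 ± 0.03 on the log2 scale. The autophagosomal SNARE gene Stx17 rose by 0.23 ± 0.05, and Tecpr1, a tethering factor gene of high level in these cells, rose to 595 ± 11.7 CPM in treated cells, against 513 ± 5.74 CPM in control cells. Of 9 other ATG and phagophore genes 2 rose, 1 fell and 6 did not pass, so that 33.3% passed against the same 65.1%. Wdr45, the WIPI4 gene, rose by 0.57 ± 0.10, Tmem41b, a lipid scramblase gene, rose by 0.14 ± 0.03, and the protease gene Atg4d fell by 0.32 ± 0.07 in log2 units.

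Of 12 tested regulators 4 rose and 5 fell. The share that passed was 75.0%, with 33.3% higher and 41.7% lower. Among tested genes of at least 5 CPM these shares were 65.1%, 26.3% and 38.7%. Trp53inp2, which encodes a nuclear protein that binds ATG8 and promotes autophagosome formation, rose to 136 ± 5.44 CPM in treated cells, against 81.4 ± 0.864 CPM in control cells (log2 fold change 0.74 ± 0.03, edgeR adjusted p = 5.69e-15). Foxo1, a transcription factor gene, rose by 0.27 ± 0.07. Ddit4, which encodes an inhibitor of mTORC1, fell by 0.22 ± 0.04 and Tfeb by 0.47 ± 0.07 on the log2 scale.

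**Figure D5:**
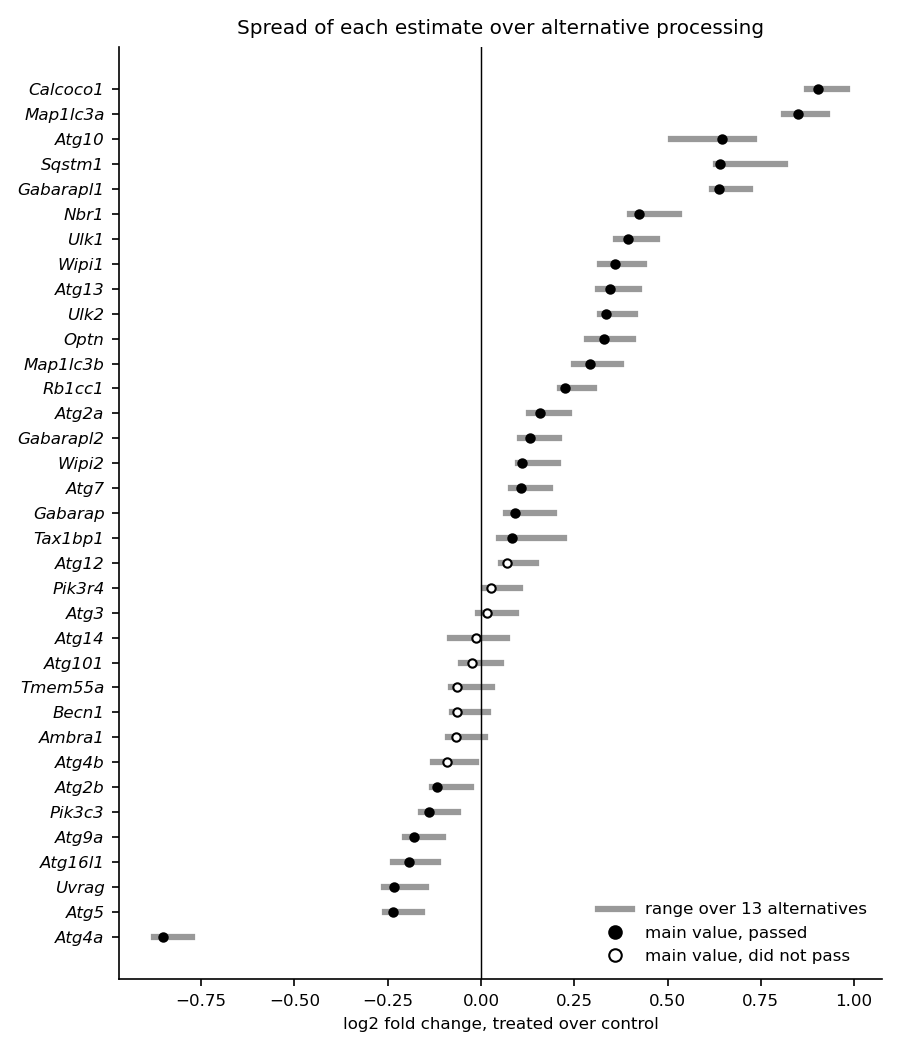
Log2 fold change (treated over control, horizontal axis) of each of the 35 genes, ordered by value, with the main estimate as a point (filled where it passed) and the range over 13 alternatives as a grey bar. Bars that cross 0 belong to 6 genes that did not pass, and the 26 genes that passed keep their sign.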

How the data were processed

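The table the authors deposited holds raw counts of reads for each gene in every library, and the labels name the column of each sample. Per the submitters' processing notes the tools were featureCounts 2.0.6, HISAT2 2.2.0 and fastp 0.22.0, given in no order, and mm39 stands beside hg38 as a build without a stated use. Strand setting and annotation release: not given in the sources used here. Symbols and lengths came from GENCODE M21 (GRCm38), so no gene coordinates are given except those of the RefSeq promoter windows.

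With edgeR 4.0.16 (R 4.3.3), filterByExpr at a count of 10 and a total of 15 left 15150 genes, which were TMM-scaled and compared between treated and control by a two-sided quasi-likelihood test; p-values carry Benjamini-Hochberg adjustment over all of them. The script was tested on simulated data. SE is the absolute log2 fold change over the square root of F. CPM uses TMM-scaled totals; levels per kilobase divide it by the APPRIS principal transcript. Libraries of 1 group differed by more than sampling noise (chi-square per gene at least 3.27). Near copies were searched with BLAST at 95% identity over at least 200 bases.

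The members, gene lists, motifs and alternatives were chosen with earlier results of these data known. The naming rule gives values in every library for members that passed with a log2 fold change of at least 0.25 in size, for the member with the smallest p among those that passed in each role, and for all ATG8 and receptor genes, and of other pathway genes up to 4 per role that passed at 5 CPM or more. Atg4b and Tmem55a, which did not pass, were given per library outside this rule, after their values were seen. Mitf, Tfe3 and the copied or overlapping genes were likewise named after their values were seen, by ranges, means or totals. The promoter table had no entry used here for Rb1cc1, Becn1, Pik3c3, Atg12, Atg16l1, Map1lc3a and Tmem55a.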

Additional observations from a re-analysis of the deposited data

How the results depend on the processing

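The 13 alternatives were median-of-ratios factors, library totals, level-dependent offsets, testing every gene, keeping those over 1 CPM in 3 libraries, DESeq2 1.42.0, the replicate number as a block, and leaving out each of 6 libraries. Of the 26 members that passed, 19 passed in the same direction under all 13. Those higher were Sqstm1, Calcoco1, Nbr1, Optn, Map1lc3a, Map1lc3b, Gabarapl1, Ulk1, Ulk2, Rb1cc1, Atg13, Wipi1, Wipi2 and Atg10. Those lower were Atg4a, Uvrag, Atg9a, Atg5 and Atg16l1. The other 7 lost the call under at least 1, with 0 reversals among the 26. Of the 9 that did not pass, 5 passed under some alternative and 6 changed sign. Leaving out 1 library gave 16 to 19 members higher and 6 to 8 lower, 3412 to 3600 genes higher and 3903 to 4098 lower, and 16 to 18 of the other pathway genes higher and 12 to 13 lower. The other pathway genes moved most: 27 higher and 9 lower with library totals, and 8 lower with level-dependent offsets. The causes were not tested.

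Log2 fold changes changed sign with library totals for Atg101 (0.0539), Becn1 (0.0127), Atg14 (0.0640), Ambra1 (0.00998) and Tmem55a (0.0142). With level-dependent offsets they did so for Atg101 (0.00790), Becn1 (0.0192), Ambra1 (6.0e-04) and Tmem55a (0.0286), and with the filter at 1 CPM for Atg14 (0.00318). On leaving out 1 library Atg101 ranged from -0.0531 to 0.00447, Atg14 from -0.0756 to 0.0694 and Atg3 from -0.00899 to 0.0432.

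Same-numbered libraries did not deviate together (correlations of -0.01, -0.04 and 0.008 for replicates 1, 2 and 3, against -0.02 to 0.03 across numbers), so the numbers are not read as pairs. With the replicate block, 19 members rose and 7 fell, 3804 genes were higher and 4257 lower, and 17 other pathway genes were higher and 13 lower. Depth limits Atg10 most, with 135 to 257 reads per library.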

Other observations

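Several rows next to the members in sequence or position had levels of their own. Gm3724, a processed pseudogene 99.4% identical to Gabarapl2 over 349 bases, had 0.558 ± 0.0746 CPM in treated and 0.628 ± 0.0425 CPM in control cells (edgeR adjusted p = 0.706). Zcchc14, whose exons overlap 0.772% of those of Map1lc3b on the opposite strand, was at 50.3 ± 2.31 CPM in treated and 45.0 ± 0.334 CPM in control cells (log2 fold change 0.16, edgeR adjusted p = 0.00277). Gskip, which overlaps Atg2b in 2.85% of its exonic bases, was at 32.6 ± 1.51 CPM in treated and 28.1 ± 1.01 CPM in control cells (log2 fold change 0.21, edgeR adjusted p = 0.00261), while Atg2b was lower. The part of these neighbours in the members' counts was not tested.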
